A study of Mus musculus with 7 samples.

Results

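The matrix proteases described here are the genes whose symbols read Mmp, Adamts or Timp with a number. They were chosen by name, through probe sets (groups of array probes for a transcript) with exactly 1 gene symbol, and where a gene had several, the one used had the highest mean across the 7 arrays. This gave 44 of the 19938 genes measured, 22 of the matrix metalloproteinase (MMP) family, 18 of the ADAMTS family and the 4 tissue inhibitors of metalloproteinases (TIMPs). Mmp15 and Adamts2 had no such probe set and were not analysed here. MMPs are zinc-dependent enzymes that cut collagens, proteoglycans and other proteins around the cell, and most are made as inactive precursors. ADAMTS proteins are secreted relatives with thrombospondin repeats that cut proteoglycans such as aggrecan and versican or trim procollagens. TIMPs bind the active enzymes and block them, and fibroblasts are known as a main source of all 3 families in connective tissue.

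Messenger RNA was measured on 7 Affymetrix arrays, each from 1 mouse cell culture. Embryonic stem (ES) cells, named OG2, were grown in N2B27(2i) for 1 array, where 2i stands for inhibitors of the kinases MEK and GSK3. Induced pluripotent stem (iPS) cells, which are fibroblasts infected with Oct4 that became pluripotent, gave 1 array of line O4-1 in the same 2i medium and 3 arrays of lines O4-1, O4-2 and O4-4 in KSR medium. Mouse embryonic fibroblasts (MEFs), taken at 13.5 days post coitum from mice named 129/OG2 in the labels, gave 1 array in the medium iCD1 and 1 array in FBS medium. The titles and growth conditions give these groups, whereas the source field names iCD1 for the iPS lines and fibroblasts for the ES sample. Values are log2 expression, so that a difference of 1 is 2-fold, and errors after differences are standard errors (SE) from limma. Only the KSR lines were replicated (n = 3 lines), so every p-value measures the spread between these lines unless another grouping is named. The labels do not say how separate the cultures were. With 7 arrays the precision is limited, and levels of different genes are not compared, since each is read by its own probes.

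The cells carried the markers of their labels. All 8 pluripotency markers rose in the KSR lines against MEFs, and 9 of 10 fibroblast markers fell (limma). The summed linear level of the fibroblast markers was 2233 in ES cells in 2i, 1233 in iPS cells in 2i, 1555, 1561 and 3020 in the KSR lines (O4-1, O4-2, O4-4), and 17242 and 15220 in MEFs in iCD1 and FBS. The collagen genes carry much of this sum. In line O4-4 Col1a1, Col1a2, Col3a1 and Postn were the highest of the KSR lines, whereas Pdgfra, Thy1 and S100a4 were below O4-1 and O4-2. Fewer fibroblasts in a culture and less RNA per cell cannot be told apart in such bulk samples. Of 8 measured macrophage markers 2 stood at or above the array median in MEFs in iCD1 and 1 on each other array, and 0 of 6 neutrophil markers did so on any array.

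**Figure D1:**
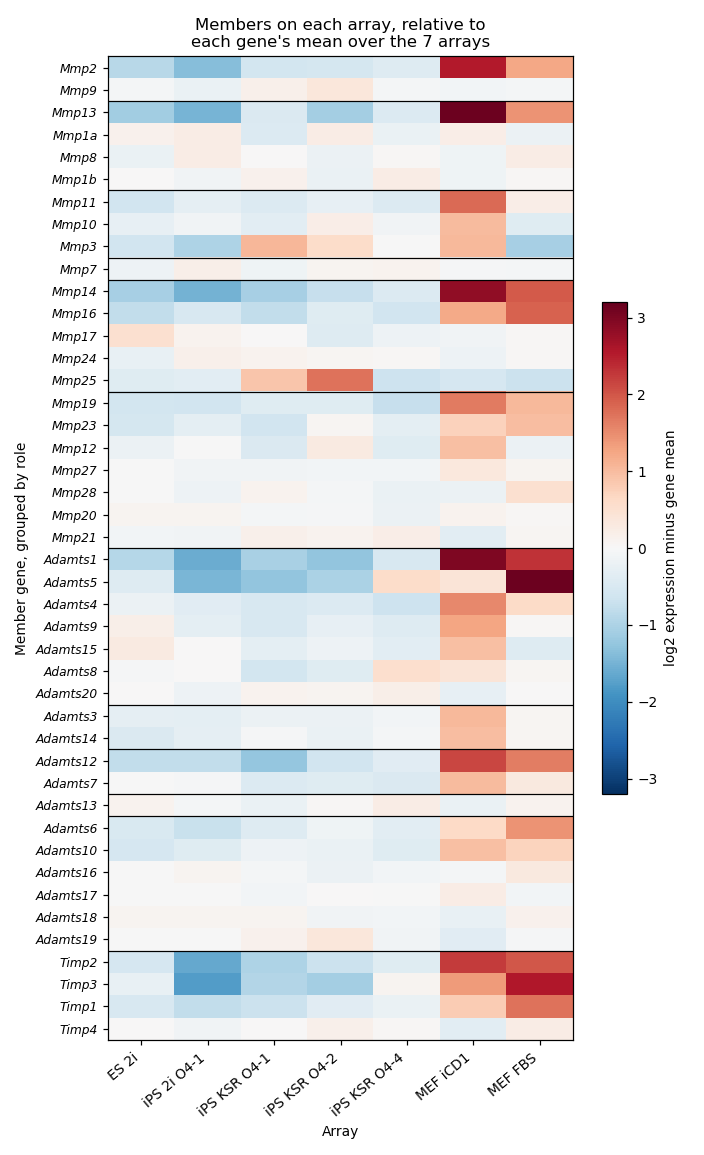
Each row is a member gene and each column an array, and colour gives log2 expression minus the mean of that gene over the 7 arrays, so that rows cannot be compared in level. Black lines divide the role classes, which run from gelatinases at the top to inhibitors at the bottom, and the warm colours lie mostly in the 2 MEF columns at the right.

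KSR iPS lines were compared with MEFs to see how cells made from fibroblasts with Oct4 differ from fibroblasts. Of 44 members 20 fell, 7 MMPs, 10 ADAMTS genes and 3 TIMPs, while 14.3% of all genes fell (limma, adjusted p under 0.05). No member rose, against 12.1% of all genes, and 26.4% of all genes passed in either direction. At an unadjusted p under 0.05 there were 24 members in either direction, against 39.0% of all genes (limma). The median difference was -0.47 over the members, -0.20 over MMPs, -0.67 over ADAMTS genes and -2.16 over TIMPs, against 0.00 over all genes. In 19 members all 5 pluripotent arrays lay below both MEF arrays, as in 22.0% of all genes, and in 0 members did all 5 lie above them, as in 21.9% of all genes. Medium and cell type changed together here, since no MEF array was in KSR. Of 10 fibroblast markers 9 fell in the same comparison, with a median difference of -3.03 over all 10, and their part in the falls of the members was not tested.

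The inhibitors are the smallest family. Timp1, a soluble inhibitor of most MMPs, was at 7.35, 7.67 and 7.83 in the KSR lines (given in the order O4-1, O4-2, O4-4 throughout), against 8.86 and 9.77 in MEFs in iCD1 and FBS. It fell by 1.70 ± 0.18 (limma, adjusted p = 0.0129). Timp2, which blocks MMPs and also helps the enzyme of Mmp14 to activate that of Mmp2, was at 7.53, 7.82 and 8.13 in the lines, against 10.75 and 10.51 in the MEFs. It fell by 2.80 ± 0.22 (limma, adjusted p = 0.00884). Timp3, which binds to the matrix and blocks ADAMTS aggrecanases as well, was at 6.15, 6.00 and 7.19, against 8.47 and 9.67. It fell by 2.63 ± 0.45 (limma, adjusted p = 0.0294), and the lines spread more for it than for the other inhibitors, with O4-4 highest. Against MEFs in iCD1 alone Timp3 did not pass (-2.03 ± 0.57, adjusted p = 0.0944). Timp4 was at 3.64, 3.78 and 3.66, against 3.28 and 3.85, and its groups overlapped (0.13 ± 0.10; limma, adjusted p = 0.415).

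Among the gelatinases, which cut denatured collagen and basement membrane collagen, Mmp2 fell and Mmp9 did not pass. Mmp2 was at 7.13, 7.17 and 7.30 in the KSR lines, against 10.27 and 8.97 in MEFs in iCD1 and FBS. It fell by 2.42 ± 0.10 (limma, adjusted p = 0.00659). Mmp9 ran from 4.41 to 4.99 over the 7 arrays. Of the membrane-anchored enzymes, Mmp14, which activates the precursor of Mmp2 at the cell surface, was at 6.85, 7.18 and 7.49, against 10.75 and 9.89. It fell by 3.15 ± 0.23 (limma, adjusted p = 0.0084), and no KSR line came within 2 log2 units of a MEF array. Mmp16, another membrane-type enzyme, was at 3.99, 4.40 and 4.17, against 6.00 and 6.68, and fell by 2.15 ± 0.16 (limma, adjusted p = 0.00846). In 2i, Mmp14 was at 6.86 in ES cells and 6.42 in iPS cells and Mmp16 at 4.00 and 4.28, below both MEF arrays. Mmp17, Mmp24 and Mmp25 of this class did not pass.

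The collagenase gene Mmp13, whose product cuts fibrillar collagen, was the 1 collagenase of 4 that fell. It was at 4.88, 4.27 and 4.91 in the KSR lines, against 8.50 and 6.80 in MEFs in iCD1 and FBS. It fell by 2.96 ± 0.26 (limma, adjusted p = 0.00975). The other collagenases lay below the median of all genes on every array, with Mmp1a between 2.20 and 2.87, Mmp1b between 2.17 and 2.62 and Mmp8 between 2.24 and 2.70. Mmp1a and Mmp1b are close copies, so their signals may not be fully separate. Mmp11, a stromelysin known from the stroma around tumours, was at 6.49, 6.66 and 6.48, against 8.73 and 7.13, and fell by 1.39 ± 0.11 (limma, adjusted p = 0.00852). That call was lost against MEFs in FBS alone, where the difference was -0.59 ± 0.13 (adjusted p = 0.0723). Mmp19 was at 4.41, 4.42 and 4.05, against 6.47 and 5.84, and fell by 1.86 ± 0.16 (limma, adjusted p = 0.00984). Mmp23 was at 4.61, 5.29 and 4.91, against 5.95 and 6.22, and fell by 1.15 ± 0.24 (limma, adjusted p = 0.046), a call lost against either MEF array alone and without line O4-4 (adjusted p = 0.143). In 2i, Mmp11 was at 6.32 in ES cells and 6.63 in iPS cells, Mmp19 at 4.22 and 4.18 and Mmp23 at 4.66 and 4.91, all below both MEF arrays.

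Adamts1, which cuts versican and aggrecan, was at 5.80, 5.57 and 6.33 in the KSR lines, against 9.82 and 9.16 in MEFs in iCD1 and FBS. Its difference of -3.59 ± 0.28 was the largest in size of the 44 members (limma, adjusted p = 0.00866). Adamts4, an aggrecanase, was at 4.53, 4.61 and 4.39, against 6.58 and 5.66, and fell by 1.61 ± 0.11 (limma, adjusted p = 0.00803). Adamts5, the main aggrecanase of mouse cartilage, was at 4.03, 4.28 and 5.86, against 5.69 and 8.41. Line O4-4 thus lay above the MEF array in iCD1, and the difference of -2.33 ± 0.68 did not pass (limma, adjusted p = 0.0911). Without line O4-4 it was -2.90 ± 0.14 and passed (limma, adjusted p = 0.0428). Adamts12, which can cut cartilage oligomeric matrix protein (COMP), was at 4.16, 4.79 and 5.02, against 7.53 and 7.04, and fell by 2.63 ± 0.31 (limma, adjusted p = 0.015). Its relative Adamts7 was at 5.45, 5.51 and 5.42, against 6.91 and 6.20, and fell by 1.09 ± 0.09 (limma, adjusted p = 0.00883). In 2i, Adamts1 was at 5.93 in ES cells and 5.26 in iPS cells, Adamts4 at 4.86 and 4.69 and Adamts12 at 4.60 and 4.61, again below both MEF arrays.

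The other ADAMTS genes that passed were Adamts6, Adamts10, Adamts9, Adamts3, Adamts14 and Adamts15. Adamts6 was at 3.54, 3.80 and 3.61 in the KSR lines, against 4.58 and 5.38 in MEFs in iCD1 and FBS, and fell by 1.33 ± 0.12 (limma, adjusted p = 0.0104). Adamts10, which is linked to fibrillin microfibrils, was at 5.27, 5.21 and 5.05, against 6.39 and 6.15, and fell by 1.09 ± 0.11 (limma, adjusted p = 0.0116). Adamts9, a versican-cutting enzyme, was at 6.06, 6.32 and 6.15, against 7.84 and 6.62 (-1.05 ± 0.12; limma, adjusted p = 0.0141). Over its 6 probe sets this difference ran from -1.98 to -0.84, with a median of -1.56, and the values given for Adamts9 are those of the set used. The procollagen N-proteinases Adamts3 and Adamts14, which trim the ends of procollagens, followed. Adamts3 was at 5.31, 5.30 and 5.41, against 6.54 and 5.55 (-0.70 ± 0.09), and Adamts14 was at 5.54, 5.38 and 5.52, against 6.57 and 5.65 (-0.63 ± 0.10). Their limma adjusted p were 0.017 and 0.0251. Over the 16 probe sets of Adamts3 the difference of the KSR lines from MEFs ran from -1.36 to -0.02, with a median of -0.52. The difference of MEFs in iCD1 from FBS ran from 0.00 to 0.99, with a median of 0.28, and the set used had 0.99. Adamts15 was at 4.16, 4.31 and 4.13, against 5.44 and 4.07 (-0.55 ± 0.10; limma, adjusted p = 0.0342), so that the lines lay above the MEF array in FBS. The calls of Adamts9, Adamts3, Adamts14 and Adamts15 depended on MEFs in iCD1. Against MEFs in FBS alone the differences were -0.45, -0.21, -0.17 and 0.13, and none of these passed (limma, adjusted p from 0.152 for Adamts9 to 0.571 for Adamts15). In 2i, Adamts6 was at 3.45 in ES cells and 3.24 in iPS cells, Adamts10 at 4.90 and 5.04, Adamts3 at 5.20 and 5.18 and Adamts14 at 5.12 and 5.30, below both MEF arrays. Adamts9 was at 6.75 in ES cells in 2i, above MEFs in FBS, and at 6.27 in iPS cells in 2i.

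The remaining 24 members did not pass. Of all members 18 stayed within 1 log2 unit over the 7 arrays, and 15 lay below the median of all genes on every array, among them Mmp7, Mmp8, Mmp9, Mmp20, Timp4 and Adamts13, the protease of von Willebrand factor. No signal over background is given, so whether such genes were detected was not tested. Adamts17 stayed between 6.73 and 7.07. When line O4-1 or line O4-2 was left out, limma called 0 members and 0 genes in all, with adjusted p for the 20 members from 0.0833 to 0.152 and from 0.0503 to 0.106, and all 20 kept their direction. Treating all 5 pluripotent arrays as 1 group and both MEF arrays as another, a test chosen after seeing the data, 18 of the 20 passed (limma, adjusted p from 6.19e-05 to 0.0429), without Adamts9 (0.0535) and Adamts15 (0.459). That grouping counts line O4-1 both in KSR and in 2i and sets medium and cell source aside. Its p-values measure the spread within these mixed groups, which are not independent replicates of a condition.

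**Figure D2:**
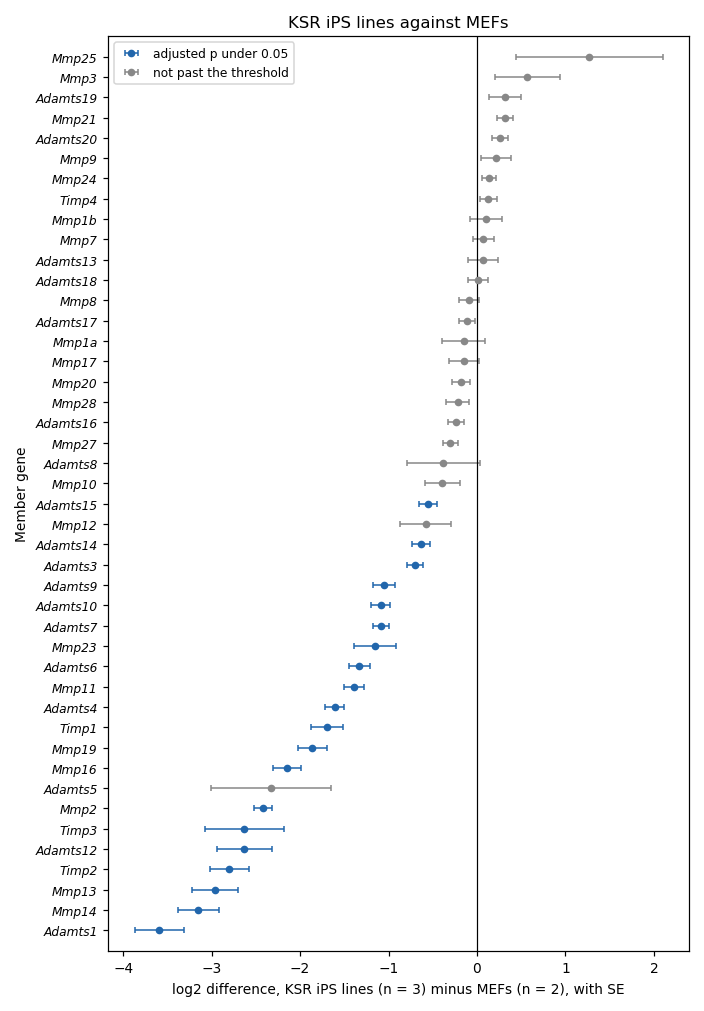
Points are log2 differences of the 44 members, the mean of the 3 KSR iPS lines minus the mean of the 2 MEF arrays, and bars are SE from limma. The 20 blue points, all left of 0, passed an adjusted p of 0.05, and the wide bar at -2.33 is that of Adamts5.

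Promoter sequence is shown for 5 of the 6 genes that fell by over 2.5 log2 units in the KSR lines against MEFs. That of Mmp13 is given with its neighbours on chromosome 9. The genes were picked after their values were seen. The 100 bases before the transcript start are given, with capitals marking the letters GGGCGG (the GC box, read on both strands, so also CCGCCC) and TATAAA (the TATA box, both strands), from GRCm38.p6 (RefSeq).
Adamts1 (chr16:85803114-85803213, minus strand): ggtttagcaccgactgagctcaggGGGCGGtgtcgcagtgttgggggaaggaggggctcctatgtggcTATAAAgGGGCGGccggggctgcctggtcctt
Mmp14 (chr14:54431498-54431597, plus strand): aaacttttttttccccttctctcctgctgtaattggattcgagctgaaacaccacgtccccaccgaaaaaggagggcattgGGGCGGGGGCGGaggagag
Timp2 (chr11:118355412-118355511, minus strand): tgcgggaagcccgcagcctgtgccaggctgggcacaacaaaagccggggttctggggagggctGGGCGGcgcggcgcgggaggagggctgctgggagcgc
Adamts12 (chr15:11064673-11064772, plus strand): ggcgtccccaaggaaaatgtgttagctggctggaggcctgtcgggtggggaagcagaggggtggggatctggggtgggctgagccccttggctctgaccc
Timp3 (chr10:86300312-86300411, plus strand): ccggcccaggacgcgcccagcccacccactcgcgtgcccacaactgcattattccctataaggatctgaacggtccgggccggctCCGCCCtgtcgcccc
A GC box was within these 100 bases in 4 of the 5, not in Adamts12, and not in Mmp13. It was so in 27.3% of the 27025 genes of the table and in 14 of the 30 members found there. Of 10 neighbouring MMP genes on chromosome 9, Mmp13 among them, 0 held it, so the 14 are all among the remaining members. Bases G and C made up 65.6%, 55.2%, 68.0%, 63.2% and 65.6% of the 250 bases before the starts of Adamts1, Mmp14, Timp2, Adamts12 and Timp3. Of these 5, Adamts1 also held TATAAA. A match of letters is a description of the sequence and does not show that a factor binds there.

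MEFs in iCD1 were compared with MEFs in FBS to see how fibroblasts differ between the media. This compares 1 array with 1, so there is no replicate check and no test. Of 44 members 25 lay higher in iCD1, against 44.8% of all genes, and 19 lay lower, against 53.0%. In 8 members the level was 2-fold or more higher, against 1.7% of all genes, and in 2 it was 2-fold or more lower, against 0.998%, or 2.7% in either direction. The 8 were 6 MMPs and 2 ADAMTS genes, and the 2 were Adamts5 and Timp3. The median difference was 0.10 over MMPs, 0.35 over ADAMTS genes and -0.74 over TIMPs, against -0.02 over all genes.

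The stromelysin gene Mmp3, whose product cuts many matrix proteins and activates other MMPs, was at 6.52 in iCD1 and 4.42 in FBS, a difference of 2.11. Mmp13 was at 8.50 and 6.80 (1.70), Mmp11 at 8.73 and 7.13 (1.61) and Mmp2 at 10.27 and 8.97 (1.29) in iCD1 and FBS. Mmp10, a stromelysin, was at 5.37 in iCD1 and 3.95 in FBS (1.41), and Mmp12, the elastase of macrophages, at 5.06 and 3.91 (1.15). In the KSR lines Mmp10 was at 4.02, 4.55 and 4.23 and Mmp12 at 3.63, 4.37 and 3.71, and in ES and iPS cells in 2i Mmp10 was at 4.09 and 4.23 and Mmp12 at 3.90 and 4.07. Even in iCD1, Mmp12 was below the median of all genes on that array. Among ADAMTS genes, Adamts15 was at 5.44 in iCD1 and 4.07 in FBS (1.37), and Adamts9 at 7.84 and 6.62 (1.22). All 6 probe sets of Adamts9 were higher in iCD1, by 1.00 to 2.05. Adamts5 went the other way by the largest difference of any member, at 5.69 in iCD1 and 8.41 in FBS (-2.72). Timp3 was at 8.47 in iCD1 and 9.67 in FBS (-1.20) and Timp1 at 8.86 and 9.77 (-0.91), while Timp2 was at 10.75 and 10.51 (0.24). Of 10 fibroblast markers 5 lay higher in iCD1 and 5 lower, with a median difference of 0.08, Pdgfra (1.37) and Col3a1 (1.36) highest and Pdgfrb (-0.69) and Thy1 (-0.65) lowest. Their part in these differences was not tested. Of 8 macrophage markers 4 lay higher in iCD1 and 4 lower, and their summed linear level was 311 in iCD1 and 198 in FBS. Lyz2 was at 6.83 in iCD1 and 4.99 in FBS and Cd68 at 6.57 and 5.78, with Adgre1 and Cd14 also higher by 0.40 and 0.21. Csf1r, Tyrobp, Ptprc and Fcgr1 had differences of -0.50, -0.32, -0.31 and -0.08. The part of these markers in the difference of Mmp12 was not tested.

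**Figure D3:**
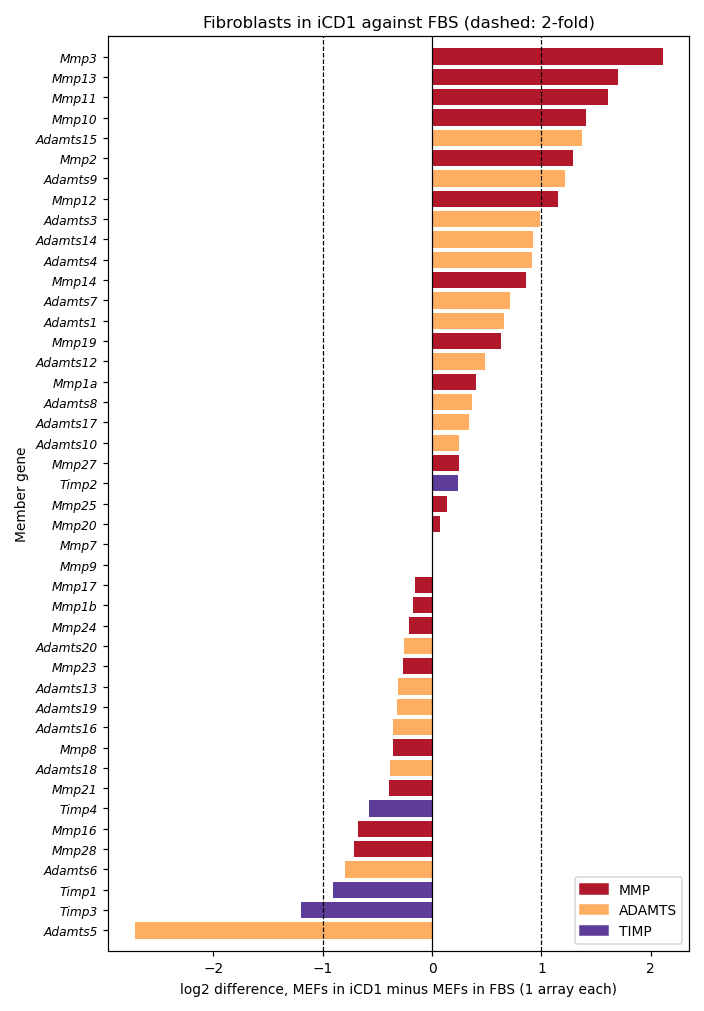
Bars are log2 differences of the 44 members between the MEF array in iCD1 and the MEF array in FBS, 1 array each, coloured by family, with dashed lines at a 2-fold difference. Mmp3 leads at the top with 2.11 and Adamts5 stands at the bottom with -2.72.

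The MMP genes of chromosome 9 showed this contrast next to each other. By RefSeq, 10 members follow one another there with no other protein-coding gene between them, in the order Mmp13, Mmp12, Mmp1b, Mmp3, Mmp1a, Mmp10, Mmp8, Mmp27, Mmp20 and Mmp7. Of these, Mmp13, Mmp12, Mmp3 and Mmp10 were 2-fold or more higher in MEFs in iCD1 than in FBS, while the other 6 differed by -0.36 to 0.40. Those 6, and Mmp12 too, lay below the median of all genes on every array, and whether they were detected was not tested. Mmp13 was also the 1 gene of the cluster that fell in the KSR lines against MEFs.

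**Figure D4:**
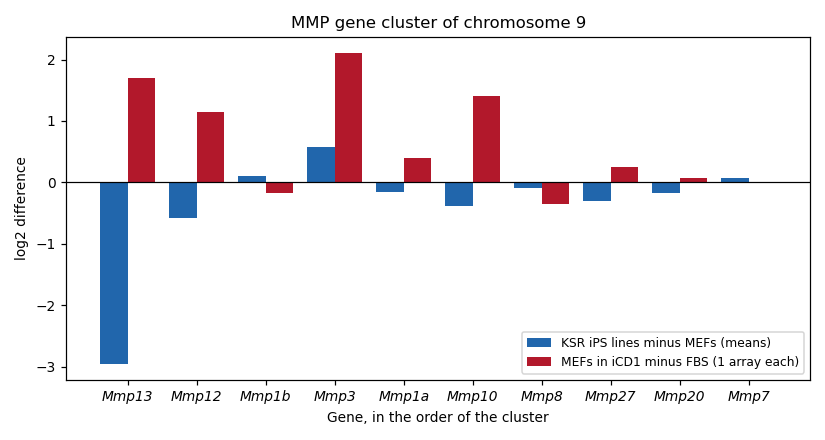
Bars are log2 differences of the 10 MMP genes of the chromosome 9 cluster in their order on the chromosome, KSR iPS lines minus MEFs in blue (means of 3 and 2 arrays) and MEFs in iCD1 minus FBS in red (1 array each). Red bars over 1 stand at Mmp13, Mmp12, Mmp3 and Mmp10, and the long blue bar at -2.96 is Mmp13.

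The 100 bases before the start are shown for the 4 cluster genes that differed between the media 2-fold or more and for Mmp1a and Mmp7, which did not. Capitals mark TGANTCA (N is any base) and TATAAA, both read on both strands, from GRCm38.p6 (RefSeq). TGANTCA is a broad form of the binding letters of AP-1, a dimer of Fos and Jun proteins. Mmp12 and Mmp7 have 2 starts in the table, and the one with TGANTCA is shown.
Mmp13 (chr9:7272414-7272513, plus strand): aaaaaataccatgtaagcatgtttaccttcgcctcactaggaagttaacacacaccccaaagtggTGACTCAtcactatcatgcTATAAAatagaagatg
Mmp12 (chr9:7347274-7347373, plus strand): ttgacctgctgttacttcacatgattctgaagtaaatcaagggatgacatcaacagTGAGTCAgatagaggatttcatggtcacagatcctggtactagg
Mmp3 (chr9:7445722-7445821, plus strand): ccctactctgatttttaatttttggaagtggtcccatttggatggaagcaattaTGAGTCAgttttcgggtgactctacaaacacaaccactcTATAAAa
Mmp10 (chr9:7502242-7502341, plus strand): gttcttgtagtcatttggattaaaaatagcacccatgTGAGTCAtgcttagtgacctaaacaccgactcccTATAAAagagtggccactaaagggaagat
Mmp1a (chr9:7464041-7464140, plus strand): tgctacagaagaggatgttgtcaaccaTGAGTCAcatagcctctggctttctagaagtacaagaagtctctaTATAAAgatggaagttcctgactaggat
Mmp7 (chr9:7691990-7692089, plus strand): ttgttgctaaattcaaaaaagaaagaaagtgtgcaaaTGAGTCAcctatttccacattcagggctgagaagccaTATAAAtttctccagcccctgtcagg
The letters TGANTCA began 35, 44, 46, 63, 73 and 63 bases before the start in Mmp13, Mmp12, Mmp3, Mmp10, Mmp1a and Mmp7. They lay within 100 bases of a start in 8 of the 10 cluster genes and in 0 of the other 20 members in the table, against 3.18% of the 27025 genes. Mmp8 and Mmp27 were the cluster genes without them. Mmp20 held them as TGAATCA, with A at N, whereas the other cluster genes with them had G or C there. TATAAA was within that window in 7 of the 10, against 6.57% of genes, the marked letters of both motifs do not overlap, and GGGCGG was in 0 of the 10. Mmp1a, Mmp1b, Mmp7 and Mmp20, which were not 2-fold apart between the MEF arrays, also hold TGANTCA. They lay below the median of all genes on every array, and so did Mmp12, which was 2-fold apart. The part of the letters in the differences between the MEF arrays was not tested.

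Genes of AP-1 proteins, part of a list of AP-1, ETS and RUNX transcription factors, were read on the MEF arrays, with 1 array each and no test. Jun was at 10.23 in iCD1 and 8.70 in FBS, Fos at 9.37 and 7.86 and Fosb at 9.23 and 7.49, whereas Fosl1 was at 5.55 in iCD1 and 6.25 in FBS. Fosl2, Junb and Jund were higher in iCD1 by 0.16, 0.49 and 0.44, under 2-fold. Of 9 measured factors on the list 3 were 2-fold or more higher in iCD1 and 0 lower, against 1.7% and 0.998% of all genes. In the KSR lines against MEFs 4 of the 9 fell, Jun, Fosl1, Fosl2 and Ets1, and 0 rose (limma), against 14.3% and 12.1% of all genes. Jun had a difference of -1.76 ± 0.24 (limma, adjusted p = 0.0189) and Fosl2 of -2.60 ± 0.16 (limma, adjusted p = 0.0076). Fos (-1.22 ± 0.32; limma, adjusted p = 0.0746) and Fosb (-1.03 ± 0.33; limma, adjusted p = 0.11) did not pass. The part of these factors in the differences of the members was not tested.

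Other genes that act with the matrix proteases also fell in the KSR lines against MEFs, where 14.3% of all genes fell and 12.1% rose. Of 6 measured plasminogen activator and serpin genes 4 fell and 0 rose, among them tissue plasminogen activator (Plat) by a difference of -3.18 ± 0.18 (limma, adjusted p = 0.00709) and urokinase (Plau) by -2.42 ± 0.19 (limma, adjusted p = 0.00878). Of 10 further inhibitors and regulators 6 fell and 2 rose. Those that fell included Reck, a membrane-anchored MMP inhibitor (-1.13 ± 0.11), Furin, a convertase that activates membrane-type MMPs (-1.92 ± 0.14), and Lrp1, a receptor that clears proteases from the cell surface (-2.97 ± 0.12). The broad protease inhibitor gene A2m was at 5.63, 5.45 and 5.48 in the KSR lines and at 4.19 and 4.34 in MEFs in iCD1 and FBS, and rose by 1.26 ± 0.10 (limma, adjusted p = 0.0089). The convertase gene Pcsk6 rose by 1.58 ± 0.33 (limma, adjusted p = 0.0443).

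Related protease families and substrates were read against the same shares of all genes, 14.3% that fell and 12.1% that rose. Of 6 ADAMTS-like genes, which resemble ADAMTS genes without the protease domain, 4 fell, of 8 ADAM genes 6, of 5 genes of procollagen C-proteinases and their enhancers 3, of 5 cathepsins 4 and of 13 substrates 8, and in each of these lists 0 rose (limma). The sheddase gene Adam10 had a difference of -2.36 ± 0.20 (limma, adjusted p = 0.00964), the tolloid gene Bmp1 of -2.60 ± 0.15 (limma, adjusted p = 0.00754) and the versican gene Vcan of -3.47 ± 0.46 (limma, adjusted p = 0.0178). The aggrecan gene Acan, a substrate of cartilage, was between 4.10 and 4.88 on all arrays and did not pass. Medians of the lists in this comparison ran from -0.55 for the inhibitors and regulators to -2.35 for the procollagen C-proteinases, against 0.00 over all genes.

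ES cells and iPS cells in 2i were set against the KSR lines, which asks how pluripotent cells differ between the media. For the ES cells the cell source changed together with the medium, since no ES array was in KSR. The ES array is also part of the comparison of both 2i cultures. No member passed for both 2i cultures together, for iPS cells in 2i or for ES cells in 2i, and 0.0% of all genes did so in each of the 3 comparisons (limma). At an unadjusted p under 0.05 there were 6, 4 and 5 members, or 13.6%, 9.09% and 11.4%, against 9.02%, 6.72% and 8.76% of all genes. These comparisons share the KSR arrays. Both 2i arrays lay below all 3 KSR lines in 9 members, as in 13.1% of all genes, and above them in 7 members, as in 12.9% of all genes.

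Mmp3 had the largest difference. It was at 4.88 in ES cells in 2i and 4.50 in iPS cells in 2i, against 6.55, 6.09 and 5.49 in the KSR lines. The groups did not overlap, and the difference of both 2i cultures from the KSR lines was -1.35 ± 0.37 (95% interval -2.42 to -0.28; limma, adjusted p = 0.545). MEFs were at 6.52 in iCD1 and 4.42 in FBS, and all 3 KSR lines lay above the level in FBS. Against the mean of both MEF arrays the KSR lines differed by 0.57 ± 0.37, and against MEFs in iCD1 alone by -0.48 ± 0.47, neither past the threshold. Mmp2 was at 6.84 in ES cells and 6.37 in iPS cells in 2i, against 7.13, 7.17 and 7.30 in KSR (-0.60 ± 0.10; limma, adjusted p = 0.545). Mmp13 was at 4.25 and 3.87 in ES and iPS cells in 2i, against 4.88, 4.27 and 4.91 in KSR (-0.63 ± 0.26; limma, adjusted p = 0.559).

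Other members lay slightly higher in 2i. Mmp17, a membrane-type enzyme, was at 5.71 in ES cells and 5.30 in iPS cells in 2i, against 5.21, 4.78 and 5.03 in the KSR lines (0.50 ± 0.17; limma, adjusted p = 0.551). Adamts7 was at 5.87 and 5.84, against 5.45, 5.51 and 5.42 (0.39 ± 0.09; limma, adjusted p = 0.545). Adamts15 was at 4.76 and 4.49, against 4.16, 4.31 and 4.13 (0.42 ± 0.10; limma, adjusted p = 0.545). In line O4-1, measured in both media, Mmp3 was 2.05 lower in 2i than in KSR, Mmp25 1.21 lower (4.48 against 5.69) and Mmp13 1.01 lower, and 0 members were 2-fold or more higher, while 0.953% of all genes were 2-fold or more lower and 0.481% higher, or 1.43% in either direction. This compares 1 array with 1 and has no test, and Mmp13 was below the median of all genes on both arrays.

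**Figure D5:**
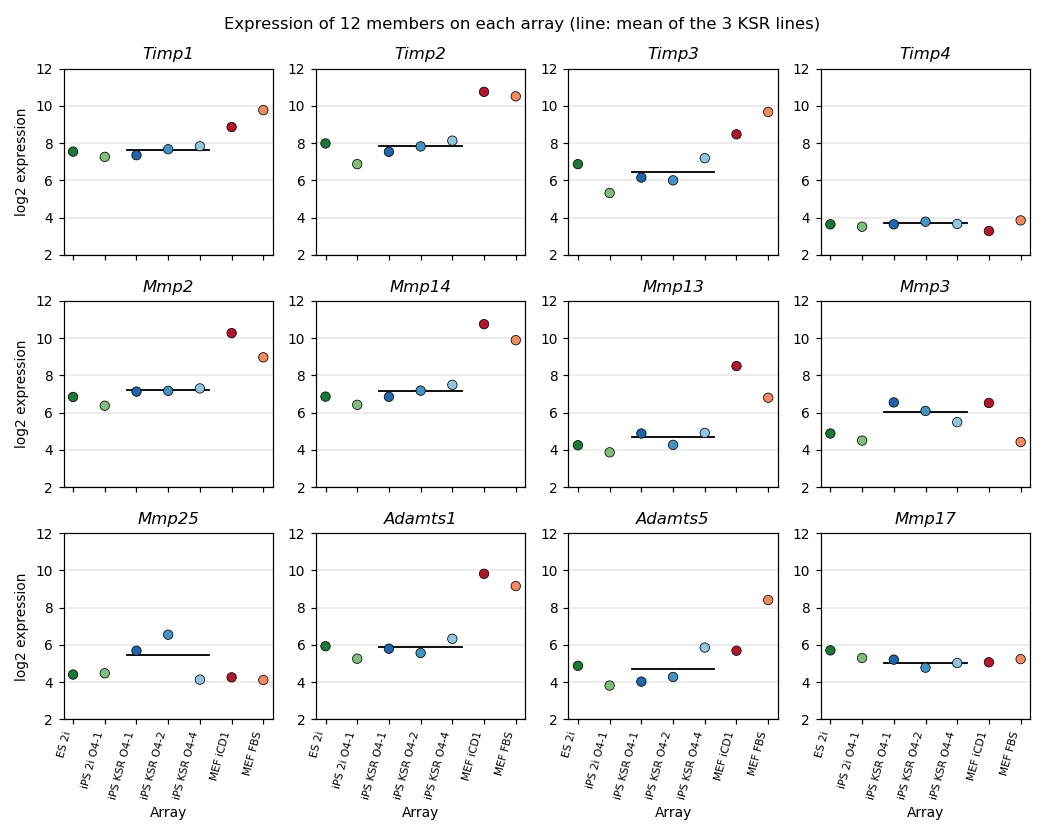
Each panel shows log2 expression of a member on the 7 arrays, with a line at the mean of the 3 KSR iPS lines. The MEF points stand above the others for Timp1, Timp2, Timp3, Mmp2, Mmp14, Mmp13 and Adamts1, the KSR lines spread widely for Mmp25 and Adamts5, and both 2i points of Mmp3 lie below the 3 KSR points.

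ES cells were compared with iPS cells, both in 2i, to see how the cell sources differ in the same medium, with 1 array each and no test. Of 44 members 3 were 2-fold or more higher in ES cells, against 0.672% of all genes, and 0 were lower, against 0.306%, or 0.978% in either direction. Timp3 was at 6.87 in ES cells and 5.32 in iPS cells (1.54), Timp2 at 7.98 and 6.87 (1.11) and Adamts5 at 4.88 and 3.82 (1.06). On both arrays Adamts5 was below the median of all genes. All 4 TIMPs lay higher in ES cells, with Timp1 at 7.54 and 7.26 and Timp4 at 3.64 and 3.51. All 10 fibroblast markers also lay higher in ES cells, with a median difference of 0.49, and their part in these differences was not tested. The genetic backgrounds named in the labels are 129/OG2 and OG2, and the part of background in these differences was not tested either.

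The KSR lines differed from each other in a few members. Their range was 1 log2 unit or more in 5 members, Mmp25, Adamts5, Timp3, Adamts8 and Mmp3, against 3.6% of all genes, and the median range was 0.34 over members and 0.30 over all genes. Mmp25, a membrane-bound enzyme known from leukocytes, was at 4.41 and 4.48 in ES and iPS cells in 2i and at 5.69, 6.55 and 4.14 in the KSR lines. Its level in O4-4 was thus like those in 2i and in MEFs, at 4.26 in iCD1 and 4.12 in FBS. Line O4-4 was highest for Adamts5 (5.86, with 4.03 and 4.28 in the others), Adamts8 (5.31, with 4.20 and 4.39) and Timp3 (7.19, with 6.15 and 6.00). In O4-4 relative to O4-1, 3 members were 2-fold or more higher and 2 lower, against 0.777% and 0.777% of all genes, or 5 members and 1.55% in either direction. In O4-4 relative to O4-2, 2 members were higher and 1 lower, against 1.44% and 1.39% of all genes, or 3 members and 2.83%. In O4-2 relative to O4-1 no member reached 2-fold, against 0.281% of all genes higher and 0.331% lower, or 0.612% in either direction. Of 10 fibroblast markers 7 lay higher and 3 lower in O4-4 than in O4-1, and 6 higher and 4 lower than in O4-2, with 4 of them 2-fold or more higher in each case. Their part in the difference of Adamts5 and Timp3 was not tested.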

How the data were processed

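Expression was measured on 7 Affymetrix arrays from 100 ng of total RNA each, labelled as sense target, per the labels' protocols. Per probe set, the authors deposited log2 expression, and the submitters' processing notes name RMA and Partek. Their versions and the build were not given in the sources used here. Array medians lay between 4.97 and 5.03, and the values were used as deposited. Of 28853 probe sets 21789 had 1 gene symbol in the platform annotation, 1621 several and 5443 were unnamed. No 2 arrays were identical. All 44 members matched a gene ID of the RefSeq table of GRCm38.p6, and 3 had several probe sets (Adamts3, Adamts9 and Adamts17).

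The test was limma 3.58.1 under R 4.3.3, with 1 fit of the 5 groups over all 19938 genes, two-sided, with Benjamini-Hochberg adjustment at 0.05. The KSR lines gave 2 residual degrees of freedom and the prior added 1.62, which assumes that single arrays vary as these lines do, and the SE leaves out the spread of MEFs. Comparisons of 1 array with 1 were counted at 2-fold. Alternatives were quantile normalization, median centring, a filter on low values, the mean of all probe sets, an intensity trend, other uses of the MEF arrays and leaving out each KSR line. Values on every array were given for the TIMPs, for members past the threshold and for those 2-fold apart between the MEF arrays or the 2i arrays and not below the median of all genes. Mmp12, Mmp17, Mmp25 and Adamts8 were added after their values were seen. The members, gene lists and role classes were chosen with earlier results of these data known. Promoters come from RefSeq, which held 30 of the 44 members. A few genes of the gene and marker lists were not analysed here.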

Additional observations from a re-analysis of the deposited data

How the results depend on the processing

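The 20 falls of members in KSR iPS lines against MEFs held under quantile normalization, median centring, the mean of all probe sets and an intensity trend. Leaving out 1 KSR line gave 0 to 16 falling members, with 0 to 1207 of all genes higher and 0 to 1569 lower, against 2415 and 2845 with all lines. Both counts of 0 came without line O4-1 or O4-2, which leaves 1 residual degree of freedom, and 0 members rose under any alternative. With MEFs in FBS alone 14 members fell, and 1306 of all genes were higher and 1662 lower, and with MEFs in iCD1 alone 18 fell, with 1752 and 2195. With the MEF arrays as replicates of 1 group 15 fell, losing Adamts3, Adamts9, Adamts14, Adamts15 and Mmp11, with 2712 of all genes higher and 2967 lower. The filter on low values kept 9969 genes, 2483 of which fell, and left 15 falling members, as it removed 6 of the 20 and Adamts5 passed (adjusted p = 0.0257, limma). Adamts5 also passed under median centring (0.029) and with all pluripotent arrays as 1 group (0.035). Reversed signs were those of Adamts15 against MEFs in FBS alone (0.13) and of Mmp3 against MEFs in iCD1 alone (-0.48), and neither passed there. Between the MEF arrays 15 members were higher and 6 lower at 1.5-fold (5.62% and 4.64% of all genes), and 5 of 18 were higher at 2-fold after the filter on low values (1.84% of the genes kept). In line O4-1 at 1.5-fold 2 members were higher and 6 lower in 2i (4.19% and 4.49%). In the comparisons with 2i no alternative called a member. Causes of these changes were not tested. No paired analysis was possible because the iPS groups share only line O4-1 and other groups share no line. Without a background measure, low signals cannot be told from none.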

Other observations

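Neighbouring ADAMTS genes differed between the MEF media in their own ways. Adamts1 and Adamts5, which follow each other on chromosome 16 among protein-coding genes, were at 0.66 and -2.72 in MEFs in iCD1 relative to FBS, and Adamts15 and Adamts8, neighbours on chromosome 9, at 1.37 and 0.37. Each of these is a difference of 1 array with 1, with no test.

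Other protease systems were also split between the MEF arrays. Cathepsin K (Ctsk), a lysosomal enzyme that cuts collagen, was at 7.75 in iCD1 and 5.85 in FBS, and Ctsb was at 11.33 and 9.82. Of 5 cathepsins 3 were 2-fold or more higher in iCD1 and 0 lower, against 1.7% and 0.998% of all genes. Tissue plasminogen activator (Plat) was at 9.05 in iCD1 and 7.71 in FBS, whereas urokinase (Plau) was at 6.86 and 8.28, its receptor gene Plaur at 5.83 and 7.69 and the tolloid gene Tll1 at 5.86 and 7.65.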
